A study of Homo sapiens with 4 samples.

Results

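Cholesterol and fatty acid synthesis genes were followed from the androgen-dependent prostate cancer line LNCaP to LN-35, its enzalutamide-resistant subline. The set held 31 of the 20332 genes in the deposited table. It was chosen by function as lipid genes driven by SREBP, the sterol regulatory element-binding proteins, with earlier results of these data known. It comprised 6 enzymes of the early mevalonate steps, 11 of the squalene and sterol steps, 4 regulators of SREBP, 7 genes of fatty acid synthesis and desaturation, and 3 genes of lipid activation, transfer and phosphatidate metabolism. Further lipid genes, in 8 lists, follow the members.

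RNA-seq was available for 2 LNCaP libraries and 2 LN-35 libraries. LNCaP is a human line grown from a lymph node metastasis of prostate cancer, and LN-35 was derived from it. The labels call LN-35 resistance cells treated with enzalutamide, an antiandrogen drug, and give RPMI-1640 with FBS as the medium of both lines. The study's methods describe passage of the resistant cells in charcoal-stripped serum, which is depleted of steroids and other lipophilic molecules, under stepwise increases of the drug. The change of serum and the resistance therefore cannot be told apart, and the sources used here do not say whether enzalutamide was still in the medium at harvest. LN-35 is a single selected subline, and separate cultures are not stated for the libraries of a line. The p-values therefore cover the spread between these libraries alone, which may be technical.

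Cells build cholesterol and fatty acids from acetyl-CoA. The mevalonate pathway turns acetyl-CoA into isoprenoids and squalene, and a series of oxidations, demethylations and isomerisations turns the first sterol, lanosterol, into cholesterol. Transcription of these enzymes is driven by SREBP-2, and that of fatty acid enzymes largely by SREBP-1, both of which are held in the endoplasmic reticulum by INSIG proteins and SCAP when sterols are plentiful and released to the nucleus when sterols run low. In prostate epithelium androgens are known to raise this program, and high fatty acid synthesis is a known feature of prostate cancer.

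The LNCaP libraries held 15333722 and 13598458 counts, and the LN-35 libraries 12225173 and 12892059. After the filter on low counts 13744 genes were tested, including all 31 members, with a biological coefficient of variation of 6.67%. Mitochondrially encoded genes held 9.53% and 9.39% of counts in LNCaP but 13.8% and 14.8% in LN-35. Summed luminal prostate markers (8 genes, all tested, 6 lower and 1 higher in LN-35) were at 3592 and 3567 CPM (counts per 1000000 counts, scaled with TMM factors) in LNCaP against 2673 and 2644 CPM in LN-35. The largest part of that sum was FOLH1, which was not called, at 1525 and 1432 against 1349 and 1365 CPM. The androgen-regulated kallikrein gene KLK3 was at 520 and 488 CPM in LNCaP and at 6.33 and 5.96 CPM in LN-35. The luminal keratin KRT8, the 1 marker called higher, was at 422 and 459 against 883 and 843 CPM. The other keratin of the list, KRT18, was lower, at 357 and 400 against 293 and 297 CPM. The 6 leukocyte markers summed to 136 and 142 CPM against 6.58 and 7.81 CPM, with LCP1 alone at 135 and 142 against 4.66 and 5.55 CPM, CD3E at 0 in all 4 libraries and PTPRC at 0 in LNCaP. The 4 endothelial markers were at 5.65 and 6.67 CPM against 0.333 and 0.805 CPM, with CDH5 and KDR at 0 throughout, and the 6 fibroblast markers at 45.4 and 36.8 against 47.3 and 44.9 CPM, a sum made up mostly of COL1A1, which was not called. Of the 4 fibroblast markers tested, the other 3 were called at least 2-fold higher in LN-35, at low levels: DCN (0 in both LNCaP libraries against 6.497 and 9.58 CPM), COL3A1 (0.317 and 0.430 against 1.00 and 2.25 CPM) and LUM (0.635 and 0.358 against 2.00 and 2.41 CPM). The part of any of these differences in the results on lipid genes was not tested. In bulk RNA, fewer cells expressing a gene and less RNA per cell cannot be told apart.

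Sequence upstream of a RefSeq start site was examined first, because the members are defined by a shared class of transcription factor. RefSeq windows of 300 bases on GRCh38.p14 (250 before to 50 after the start) were matched for 28 of the 31 members. The sterol regulatory element TCACNCCAC, searched on both strands, was present in 1 of them (3.57%) against 1.15% of 27305 windows of that length. CCAAT, the box bound by NF-Y, which acts with SREBP at many sterol genes, was found in 18 members (64.3%) against 35.7% of all windows. The E-box CACGTG, which SREBP can also bind, was found in 4 (14.3%, LSS, SC5D, INSIG1 and SCAP) against 7.43%. CCAAT was held by 7 of 10 matched members called higher in LN-35 and by 9 of 15 called lower. A match is a run of letters and not a shown binding site, and elements outside the window or with other letters were not searched. A single window was used per gene, and it need not lie at the outer end of the gene as counted. That of IDI1 (chr10:1056655-1056954) lay upstream of the counted gene, which ends at 1049170 on the minus strand. Windows of ACLY, FADS1, FADS2, LPIN1 and DHCR7, among others, lay well inside the gene span. Absence of a motif there does not speak for other start sites.

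Stretches free of protein-coding exons are shown for 4 members on the plus strand, with CCAAT boxes (ATTGG on the other strand) and the sterol element in capitals. SREBF2 (chr22:41832855-41833078, inside an exon of the antisense RNA SREBF2-AS1) is shown as the only member with the sterol element, TCACCCCAC, which starts 133 bases before the RefSeq start. SCD (chr10:100346983-100347123) is shown as the desaturase gene that fell most among those with a CCAAT box. MSMO1 (chr4:165327419-165327622) and NSDHL (chrX:152830813-152830966) are shown because they encode consecutive enzymes of sterol demethylation, both with several CCAAT boxes, and moved in opposite directions. In NSDHL the last capitals, CCAATTGG, are overlapping matches on either strand.
SREBF2: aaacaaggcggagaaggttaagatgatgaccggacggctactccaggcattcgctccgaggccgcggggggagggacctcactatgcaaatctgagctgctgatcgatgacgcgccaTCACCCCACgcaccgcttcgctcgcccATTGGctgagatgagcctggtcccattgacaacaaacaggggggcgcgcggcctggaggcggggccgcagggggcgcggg
SCD: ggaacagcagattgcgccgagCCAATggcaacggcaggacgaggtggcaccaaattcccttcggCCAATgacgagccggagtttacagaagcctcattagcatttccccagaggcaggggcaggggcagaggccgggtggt
MSMO1: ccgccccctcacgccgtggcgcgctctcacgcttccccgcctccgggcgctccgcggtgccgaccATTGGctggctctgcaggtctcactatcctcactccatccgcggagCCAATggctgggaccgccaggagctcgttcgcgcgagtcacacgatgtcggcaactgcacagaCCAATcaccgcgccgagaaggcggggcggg
NSDHL: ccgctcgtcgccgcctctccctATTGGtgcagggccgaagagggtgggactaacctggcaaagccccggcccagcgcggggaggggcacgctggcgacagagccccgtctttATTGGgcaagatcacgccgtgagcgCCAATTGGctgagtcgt

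The set did not move as a block. Of the 31 members 12 (38.7%) were higher in LN-35, 15 (48.4%) were lower and 4 (MVK, PMVK, ACLY and FASN) did not pass edgeR's quasi-likelihood test at a Benjamini-Hochberg adjusted p under 0.05. Over all tested genes 71.8% were called, 36.4% higher and 35.5% lower, so that calls were common everywhere. All members had a mean of at least 10 CPM. Among the 10004 tested genes at that level, a background chosen after the data were seen, 35.1% were higher and 37.9% were lower. Differences of at least 2-fold leaned to one side: 8 members (25.8%) were at least 2-fold lower, against 14.2% of all tested genes and 10.6% of those at 10 CPM or more. These were TM7SF2, HSD17B7, SC5D, INSIG1, SREBF1, SCD, FADS2 and LPIN1. A single member, ELOVL6, was at least 2-fold higher, against 18.4% of all tested genes and 11.9% of those at 10 CPM or more. The median log2 fold change of the members (LN-35 over LNCaP) was -0.13, against -0.0069 over all tested genes, and it was -0.04 without LNCaP replicate 1. Levels of the groups did not overlap in 28 members and overlapped in MVK, PMVK and FASN, and they overlapped in 1994 of all 13744 tested genes.

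**Figure D1:**
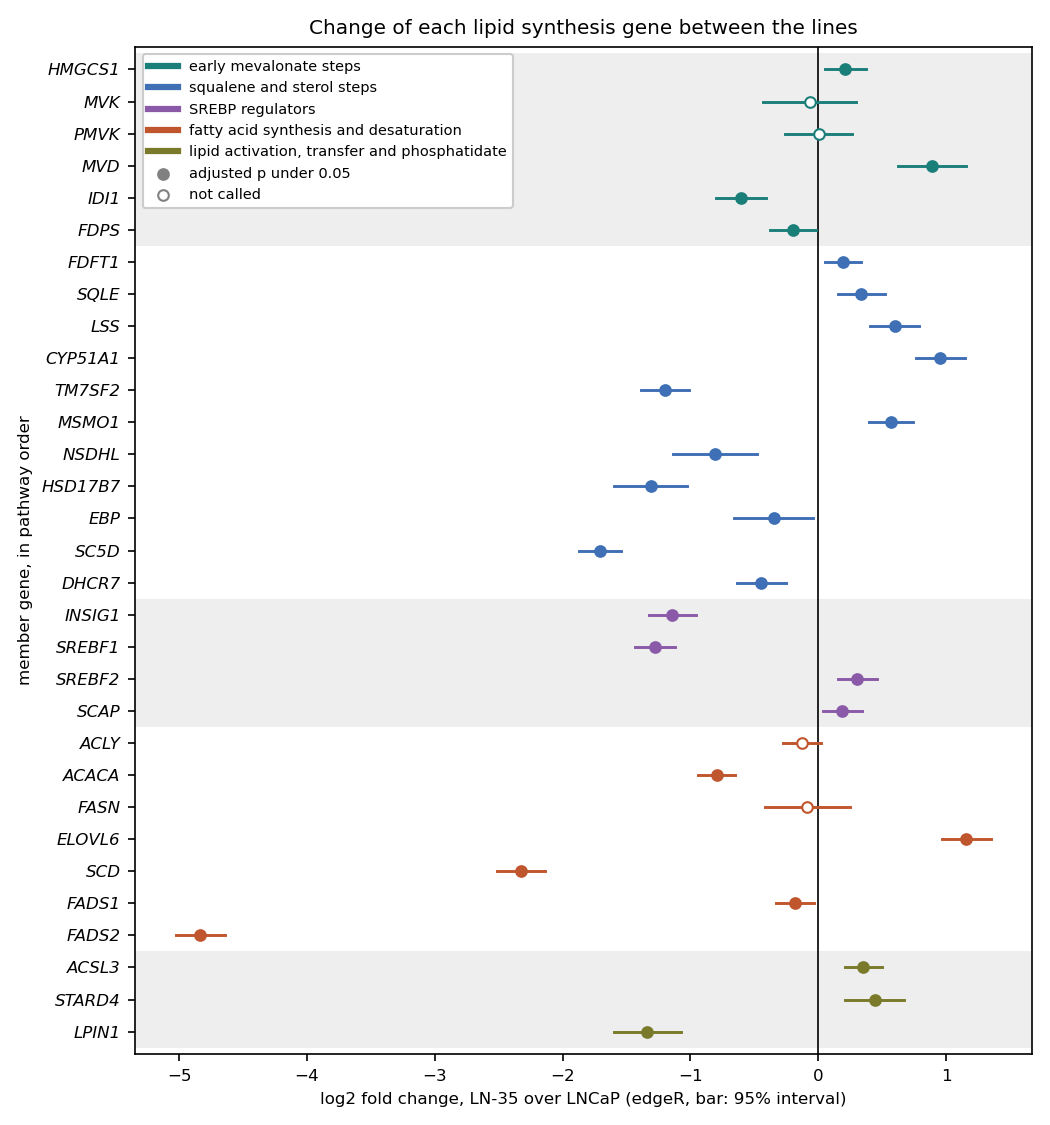
Log2 fold change (LN-35 over LNCaP, x axis) of each of the 31 members in pathway order (y axis), with the 95% interval of the edgeR fit as a bar and an open point where the adjusted p was 0.05 or more. FADS2 lies farthest to the left at -4.83 and ELOVL6 farthest to the right at 1.16, and squalene and sterol enzymes lie on both sides of 0.

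Early mevalonate enzymes had a level sum, at 315 and 314 CPM in LNCaP and 328 and 301 CPM in LN-35, but 2 of them were higher, 2 lower and 2 not called. Those shares, 33.3% in each direction, were near the 36.4% higher and 35.5% lower of all tested genes. HMGCS1, which condenses acetyl-CoA and acetoacetyl-CoA to HMG-CoA, was at 107 and 110 CPM in LNCaP and at 133 and 118 CPM in LN-35. HMGCS1 was called (log2 fold change 0.21, SE 0.08, edgeR adjusted p = 0.0171), but not on library totals alone (0.14, adjusted p = 0.121) or without LN-35 replicate 1 (0.13, adjusted p = 0.274). The kinases that phosphorylate mevalonate did not differ beyond the spread between libraries. MVK, mevalonate kinase, was at 14.98 and 11.9 CPM against 14.3 and 11.4 CPM (95% interval of the log2 fold change -0.43 to 0.30), and replicate 1 exceeded replicate 2 in both lines. PMVK, phosphomevalonate kinase, was at 23.3 and 22.9 CPM against 23.6 and 22.8 CPM (interval -0.26 to 0.27).

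MVD was the early gene with the largest difference. The gene encodes the decarboxylase that yields isopentenyl diphosphate, and its level was 18.5 and 18.7 CPM in LNCaP but 30.7 and 38.2 CPM in LN-35 (1.86-fold higher, log2 fold change 0.89, SE 0.13, edgeR adjusted p = 1.71e-06). IDI1, the isomerase acting on that product, differed in the opposite sense, with 61.1 and 64.2 CPM in LNCaP and 43.4 and 38.9 CPM in LN-35 (1.52-fold lower, edgeR adjusted p = 4.70e-06). Neighbouring enzymes of 1 route thus had unlike directions, with both LN-35 libraries outside the LNCaP values in each case. FDPS, farnesyl diphosphate synthase, was at 90.4 and 86.4 CPM against 83.2 and 71.2 CPM. Its call was marginal (log2 fold change -0.20, SE 0.09, edgeR adjusted p = 0.0465) and was lost without LNCaP replicate 1 (-0.17, adjusted p = 0.120), without LN-35 replicate 2 (-0.08, adjusted p = 0.534), with DESeq2 (-0.18, adjusted p = 0.178) or its size factors (adjusted p = 0.0670), and with a stricter filter (adjusted p = 0.0693). GENCODE 29 lists 8 named pseudogenes of FDPS that may share reads with it, so FDPS counts are uncertain.

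The steps from farnesyl diphosphate to lanosterol and its first demethylation were higher in LN-35. FDFT1, squalene synthase, was the most abundant sterol enzyme per kilobase of exon in LNCaP, with 405 and 384 CPM in LNCaP and 457 and 444 CPM in LN-35. The difference was small (log2 fold change 0.19, SE 0.07, edgeR adjusted p = 0.0157) and missed the threshold without LN-35 replicate 1 (0.18, adjusted p = 0.153), without LN-35 replicate 2 (0.22, adjusted p = 0.0861) and on library totals alone (0.11, adjusted p = 0.130). SQLE, squalene epoxidase, a rate-limiting oxygenase of the pathway, was at 69.1 and 71.5 CPM against 96.4 and 81.1 CPM. SQLE was called (log2 fold change 0.34, SE 0.09, edgeR adjusted p = 0.00174), and its change was 0.22, not called, without LN-35 replicate 1 (adjusted p = 0.0940).

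LSS, lanosterol synthase, which closes the sterol rings, was at 63.7 and 52.8 CPM in LNCaP and 91.0 and 85.9 CPM in LN-35 (1.51-fold higher, edgeR adjusted p = 4.06e-06). CYP51A1, the lanosterol 14-alpha demethylase, rose most of the sterol enzymes. It went from 183 and 145 CPM to 325 and 310 CPM, 1.94-fold higher (log2 fold change 0.96, SE 0.09, edgeR adjusted p = 9.93e-08). MSMO1, the C4-methylsterol oxidase, also rose, from 78.8 and 72.1 CPM to 119 and 105 CPM (log2 fold change 0.57, SE 0.08, edgeR adjusted p = 1.90e-06). For these 3 genes both LN-35 libraries lay above both LNCaP libraries. CYP51A1 shares 2844 exonic bases with an overlapping protein-coding model on the same strand, AC000120.2, had a fractional count in 3 of 4 libraries and has 3 named pseudogenes, so its counts are uncertain. Fractional counts were also present for EBP (2 libraries), FADS1 (1) and FADS2 (1).

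From the C14 reductase onward the other sterol enzymes were lower in LN-35. TM7SF2, a sterol C14 reductase, was at 102 and 120 CPM in LNCaP and 49.7 and 46.8 CPM in LN-35 (2.29-fold lower, log2 fold change -1.20, SE 0.09, edgeR adjusted p = 4.19e-11). NSDHL, which removes the C4 carboxyl group after MSMO1 has acted, was at 23.7 and 18.1 CPM against 11.9 and 12.1 CPM (1.75-fold lower, edgeR adjusted p = 9.69e-05). HSD17B7, the 3-ketosterol reductase of the same demethylation complex, was at 36.4 and 31.5 CPM against 12.2 and 15.1 CPM. HSD17B7 was thus 2.48-fold lower (log2 fold change -1.31, SE 0.14, edgeR adjusted p = 1.22e-08), and since 2 named pseudogenes of it may share reads, its counts are uncertain.

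SC5D, the lathosterol C5-desaturase, showed the largest fall among sterol enzymes. It was at 234 and 228 CPM in LNCaP and at 75.6 and 65.7 CPM in LN-35 (3.27-fold lower, log2 fold change -1.71, SE 0.08, edgeR adjusted p = 2.42e-15). Its LN-35 libraries lay far below both LNCaP libraries. EBP, the sterol isomerase just before it, was at 21.1 and 18.6 CPM against 16.8 and 14.4 CPM, and DHCR7, which reduces 7-dehydrocholesterol to cholesterol, at 142 and 119 CPM against 103 and 89.3 CPM. DHCR7 was 1.36-fold lower (log2 fold change -0.44, SE 0.09, edgeR adjusted p = 0.000212). EBP passed narrowly (-0.35, SE 0.15, edgeR adjusted p = 0.0395) and did not pass without LNCaP replicate 1 (-0.26, adjusted p = 0.197), without LN-35 replicate 2 (-0.24, adjusted p = 0.275) or with DESeq2 (-0.33, adjusted p = 0.174).

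The 17 cholesterol enzymes together thus held 7 higher (41.2%), 8 lower (47.1%) and 2 uncalled genes, beside 36.4% higher and 35.5% lower of all tested genes. Their summed level barely differed. The sum was 1673 and 1574 CPM in LNCaP and 1686 and 1571 CPM in LN-35. The composition did differ: the ratio of SC5D to CYP51A1 per kilobase of exon was 0.825 and 1.01 in LNCaP and 0.150 and 0.136 in LN-35, a pair chosen after the values were seen. The order of enzymes in the route followed the split only in part, since MSMO1 acts after TM7SF2.

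**Figure D2:**
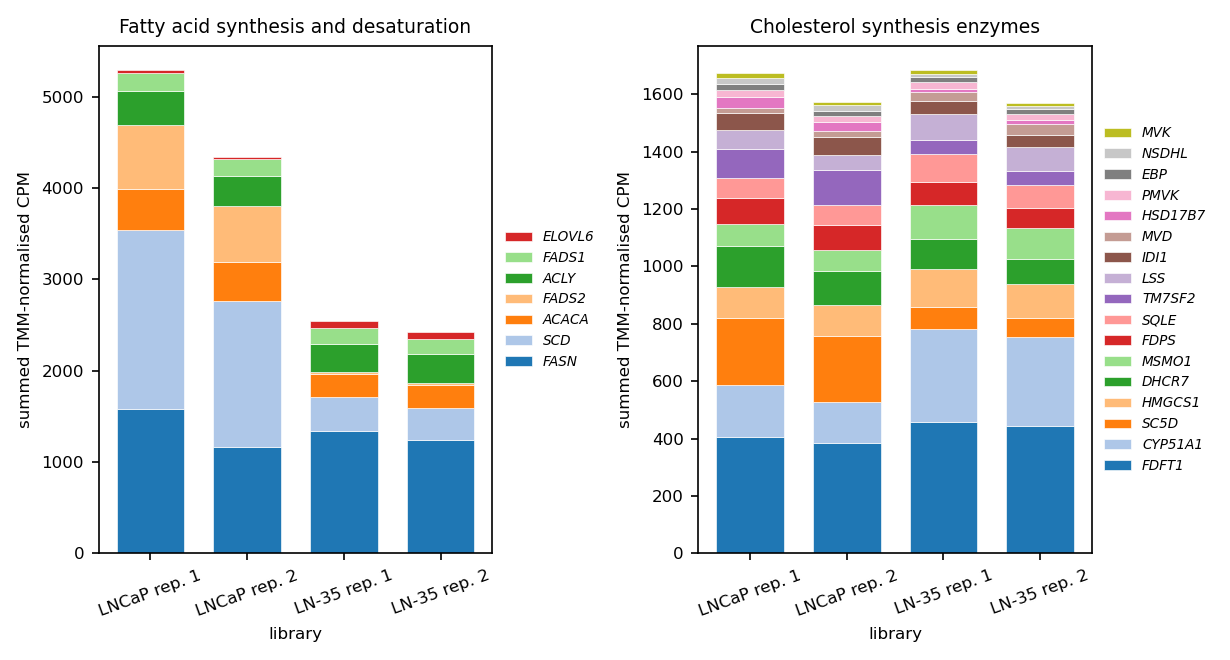
Summed TMM-normalised CPM (y axis, from 0) in each library (x axis) for the 7 genes of fatty acid synthesis and desaturation (left) and the 17 cholesterol enzymes (right), stacked by gene. The fatty acid sum is 5295 and 4343 CPM in LNCaP and 2540 and 2420 CPM in LN-35, while the cholesterol sum lies between 1571 and 1686 CPM in all 4 libraries.

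Among the regulators the SREBP genes themselves moved apart. SREBF1, encoding the SREBP-1 isoforms that drive fatty acid genes, was at 271 and 250 CPM in LNCaP and at 114 and 101 CPM in LN-35 (2.42-fold lower, log2 fold change -1.28, SE 0.08, edgeR adjusted p = 5.84e-13). SREBF2, encoding SREBP-2, was at 441 and 386 CPM against 522 and 502 CPM (log2 fold change 0.31, SE 0.07, edgeR adjusted p = 0.000721). Per kilobase of exon the ratio of SREBF2 to SREBF1 was 1.73 and 1.64 in LNCaP and 4.84 and 5.30 in LN-35, again a pair chosen after the values were seen. Exons of SREBF1 overlap 556 antisense bases of RAI1, and SREBF2 overlaps 280 bases of SREBF2-AS1. Other members also overlap antisense genes, the most bases being in HMGCS1 (703), FDPS (693) and IDI1 (643). Since no use of strand is stated, reads of these partners cannot be separated.

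INSIG1 encodes the endoplasmic reticulum anchor of the SREBP-SCAP complex and is itself a known SREBP target. Its level was 138 and 118 CPM in LNCaP and 60.1 and 56.2 CPM in LN-35 (2.21-fold lower, log2 fold change -1.14, SE 0.09, edgeR adjusted p = 5.67e-11). SCAP, the sterol-sensing escort of SREBP, differed little, with 97.8 and 97.2 CPM against 111 and 111 CPM. Its call (log2 fold change 0.19, SE 0.07, edgeR adjusted p = 0.0273) did not hold with DESeq2 (0.21, adjusted p = 0.0584), on library totals alone (0.11, adjusted p = 0.186), or without LN-35 replicate 1 (0.20, adjusted p = 0.0991) or 2 (0.19, adjusted p = 0.119).

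**Figure D3:**
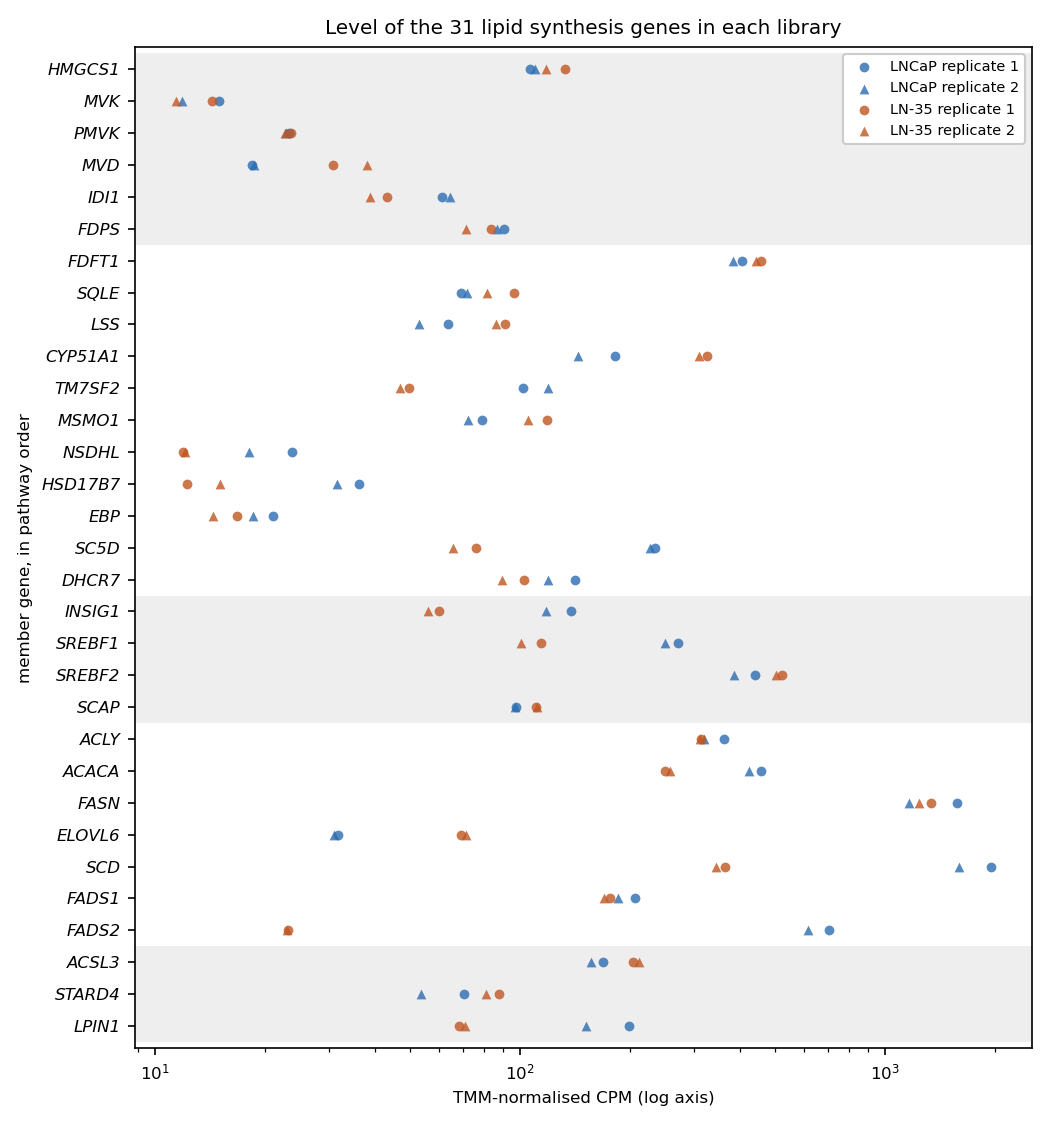
TMM-normalised CPM (x axis, log scale) of each member (y axis, pathway order) in the 4 libraries, with LNCaP in blue, LN-35 in orange, circles for replicate 1 and triangles for replicate 2. FADS2 spans the widest gap, from 616 and 701 CPM in LNCaP to 23.0 and 23.2 CPM in LN-35, and the symbols of MVK, PMVK and FASN are interleaved.

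Desaturase genes were lower in LN-35, whereas genes that build and lengthen the chain went different ways. ACLY, the ATP citrate lyase that supplies cytosolic acetyl-CoA, was at 363 and 321 CPM in LNCaP and at 314 and 311 CPM in LN-35. ACLY did not pass (log2 fold change -0.13, 95% interval -0.28 to 0.02, edgeR adjusted p = 0.111), but it did without LNCaP replicate 2 (-0.22, adjusted p = 0.00150) and on library totals alone (-0.21, adjusted p = 0.0111). ACACA, acetyl-CoA carboxylase alpha, the committed step to malonyl-CoA, was at 458 and 424 CPM against 250 and 258 CPM (1.73-fold lower, edgeR adjusted p = 4.97e-10). Both LN-35 libraries lay below both LNCaP libraries for ACACA.

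FASN, the fatty acid synthase, was at 1577 and 1167 CPM in LNCaP and at 1342 and 1243 CPM in LN-35. The LN-35 values fell between those of LNCaP, and the log2 fold change of -0.09 (SE 0.14, 95% interval -0.42 to 0.25) did not pass the test (edgeR adjusted p = 0.602). Its direction depended on which LNCaP library was used: without LNCaP replicate 1 FASN was called higher (0.14, adjusted p = 0.0182) and without LNCaP replicate 2 it was called lower (-0.29, adjusted p = 3.33e-05). ELOVL6, which elongates palmitate to stearate, was the member with the largest rise, from 31.8 and 30.9 CPM to 68.8 and 71.4 CPM (2.24-fold higher, log2 fold change 1.16, SE 0.09, edgeR adjusted p = 1.04e-10).

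SCD, the stearoyl-CoA desaturase that makes oleate, was the most abundant member in LNCaP, at 1958 and 1599 CPM, and stood at 365 and 344 CPM in LN-35. SCD was thus 5.01-fold lower (log2 fold change -2.33, SE 0.09, edgeR adjusted p = 9.91e-15). FADS2, the delta-6 desaturase of polyunsaturated fatty acids, showed the largest change of the set. It went from 701 and 616 CPM in LNCaP to 23.2 and 23.0 CPM in LN-35 (28.5-fold lower, log2 fold change -4.83, SE 0.09, edgeR adjusted p = 1.57e-22). SCD and FADS2 each have 1 named pseudogene that may share reads, so their counts carry this uncertainty too. FADS1, the delta-5 desaturase that acts after FADS2 in the same route, was at 207 and 186 CPM against 177 and 170 CPM. FADS1 passed narrowly (-0.18, SE 0.07, edgeR adjusted p = 0.0284) and did not pass without LNCaP replicate 1 (-0.11, adjusted p = 0.154), LN-35 replicate 1 (-0.20, adjusted p = 0.0889) or LN-35 replicate 2 (-0.15, adjusted p = 0.212), nor with DESeq2 (-0.17, adjusted p = 0.0975).

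FADS1 (chromosome 11, 61799625 to 61829318, minus strand) lies within the span of FADS2 (61792980 to 61867354, plus strand, GENCODE 29 on GRCh38). The 2 genes share 490 antisense exonic bases. Per kilobase of exon the ratio of FADS2 to FADS1 was 3.14 and 3.07 in LNCaP and 0.122 and 0.126 in LN-35. Neighbours on the chromosome were looked at after this was seen. FADS3, a related gene beside them, was at 42.1 and 53.9 CPM against 23.1 and 25.5 CPM (log2 fold change -0.98, SE 0.12, edgeR adjusted p = 2.95e-07). MYRF, a transcription factor gene on the other side, was higher in LN-35, at 9.96 and 7.53 CPM against 47.6 and 35.2 CPM (2.24, SE 0.17, edgeR adjusted p = 5.44e-10). FEN1, a nuclease gene of DNA replication on the MYRF side, shares 49 same-strand exonic bases with FADS2. FEN1 was at 21.5 and 20.4 CPM against 18.2 and 18.3 CPM and was not called (edgeR adjusted p = 0.193). TMEM258 was lower, at 23.0 and 26.3 CPM against 14.2 and 13.8 CPM (-0.82, edgeR adjusted p = 1.77e-05), as were BEST1 (-0.31, adjusted p = 0.00672) and the abundant ferritin gene FTH1, at 6106 and 7314 CPM against 3167 and 3383 CPM (-1.03, adjusted p = 3.19e-10). RAB3IL1 was not called (0.28, adjusted p = 0.0694). Of the genes looked at around FADS1 and FADS2, MYRF was the only one called higher.

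The 7 fatty acid genes summed to 5295 and 4343 CPM in LNCaP and to 2540 and 2420 CPM in LN-35, 1.94-fold lower. Of them 1 (14.3%) was higher, 4 (57.1%) were lower and 2 uncalled, beside 36.4% higher and 35.5% lower of all tested genes. Their median log2 fold change was -0.18. Most of the fall in the sum came from SCD and FADS2, while FASN was the largest part of the LN-35 sum. The ratio of SCD to FASN per kilobase was 2.17 and 2.39 in LNCaP and 0.475 and 0.484 in LN-35, a pair chosen after the values were seen. By CPM per kilobase of exon SCD went from rank 1 of the 31 members in LNCaP to rank 5 in LN-35, and FASN from rank 2 to rank 1. FADS2 went from rank 5 to rank 30, SC5D from rank 8 to rank 21 and CYP51A1 from rank 7 to rank 2, and MVK ranked last in both lines.

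The remaining members handle lipids downstream. ACSL3, an acyl-CoA synthetase of the endoplasmic reticulum and lipid droplets, was at 169 and 157 CPM in LNCaP and at 204 and 212 CPM in LN-35 (log2 fold change 0.35, SE 0.07, edgeR adjusted p = 0.000109). STARD4, a cytosolic sterol carrier, was at 70.1 and 53.6 CPM against 87.8 and 80.6 CPM (0.44, SE 0.11, edgeR adjusted p = 0.00176). LPIN1, the phosphatidate phosphatase lipin 1, was at 199 and 152 CPM against 68.3 and 70.7 CPM (2.53-fold lower, log2 fold change -1.34, SE 0.12, edgeR adjusted p = 1.66e-06). For each of the 3 the lines did not overlap, and the calls held under every alternative that was run except, for ACSL3 and STARD4, the test against a 1.5-fold change.

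Members also shared a pattern between libraries of the same line. In LNCaP, replicate 1 was above replicate 2 in 26 of 31 members (83.9%, median log2 ratio 0.16), against 52.1% of the 9948 tested genes that averaged at least 10 CPM and had counts in both libraries. In LN-35 replicate 1 was above replicate 2 in 23 members (74.2%, median 0.08), against 49.4% of 9974 such genes. The widest gap was that of FASN in LNCaP (log2 ratio 0.43). The median log2 ratio of LN-35 to LNCaP over the members was -0.21 within repeat 1 and -0.06 within repeat 2. No test was made of this pattern, which was noticed in the values.

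Further lipid genes were read from 8 lists totalling 72 genes, of which 70 were tested (CYP27A1 and ACSL5 were too low). Of these 21 were higher and 33 lower, with a median log2 fold change of -0.17, beside the 36.4% and 35.5% of all tested genes. Counts per list below are to be read beside those shares of all tested genes. Genes are named by a rule, at most 2 per direction and list. SREBP processing and sterol sensing held 2 higher and 5 lower of 8. INSIG2, the second anchor of SCAP, was at 47.4 and 39.9 CPM in LNCaP and at 8.58 and 12.6 CPM in LN-35 (log2 fold change -2.05, SE 0.15, edgeR adjusted p = 3.43e-10), so both INSIG genes were lower. TMEM97, the sigma-2 receptor, was lower too (-1.61), and MBTPS1, the protease that makes the first cut in SREBP, was higher at 111 and 107 CPM against 176 and 178 CPM (0.70). UBE2G2, a ubiquitin-conjugating enzyme of the endoplasmic reticulum, was called higher (0.22, edgeR adjusted p = 0.0152), but not without LN-35 replicate 1 (adjusted p = 0.221), without LNCaP replicate 2 (adjusted p = 0.0592) or on library totals alone (adjusted p = 0.107).

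Genes that encode or respond to the oxysterol receptor LXR, or that export cholesterol, had no common direction, with 2 higher, 2 lower and 4 uncalled of 8. SMPDL3A rose from 17.0 and 16.3 CPM to 45.0 and 45.1 CPM. The phospholipid acyltransferase LPCAT3 (log2 fold change -1.42) and the sterol exporter ABCG1 (-1.45) were lower, and MYLIP, a ubiquitin ligase for lipoprotein receptors, was higher (0.67, edgeR adjusted p = 0.00137) but not called without LN-35 replicate 2 (0.47, adjusted p = 0.0606). Of 8 genes of cholesterol storage and lysosomal release, 2 were higher and 5 lower. NPC1, which moves cholesterol out of lysosomes, was at 220 and 188 CPM in LNCaP and at 48.1 and 49.7 CPM in LN-35 (-2.06, SE 0.09, edgeR adjusted p = 5.80e-16), whereas its partner NPC2 was higher (29.2 and 31.5 against 55.1 and 54.1 CPM, log2 fold change 0.85). STARD3, a late-endosomal sterol transporter, was lower (-0.53) and SOAT1, which esterifies cholesterol, higher (0.45).

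Acetyl-CoA supply and other sterol enzymes held 4 higher and 2 lower of 7 tested. FAXDC2, a relative of the sterol oxidase MSMO1, was near its detection limit in LNCaP, with 36 and 13 counts, and reached 725 and 759 counts in LN-35. In CPM this was 2.28 and 0.932 against 60.4 and 61.1 (log2 fold change 5.20, SE 0.20, edgeR adjusted p = 4.93e-15), and the log2 fold change was 6.005 without LNCaP replicate 1 and 4.72 without LNCaP replicate 2. ERG28, the scaffold of the C4 demethylation enzymes, was higher (0.83), in contrast to NSDHL and HSD17B7. ACAT2, the cytosolic thiolase that feeds HMGCS1 with acetoacetyl-CoA, was lower (-0.88), and so was ACSS2, which makes acetyl-CoA from acetate (-0.62).

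Fatty acid elongation and further lipogenic genes held 2 higher and 6 lower of 12. SCD5, the second stearoyl-CoA desaturase, fell from 56.4 and 64.4 CPM to 6.66 and 3.54 CPM (log2 fold change -3.57, SE 0.18, edgeR adjusted p = 1.60e-10), so that both SCD genes were lower. ME1, the malic enzyme that supplies NADPH for fatty acid synthesis, fell from 209 and 202 CPM to 28.6 and 25.4 CPM (-2.93, SE 0.09, edgeR adjusted p = 4.20e-19). HSD17B12, the ketoreductase of the elongation cycle that ELOVL6 starts, rose from 31.7 and 29.5 CPM to 83.4 and 88.4 CPM (1.49, SE 0.09, edgeR adjusted p = 8.30e-13), and the elongase ELOVL1 rose by 0.39. Of 10 genes of triglyceride synthesis and lipid droplets, 3 were higher and 6 lower. The last enzyme of triglyceride synthesis is encoded by DGAT1 and DGAT2, and these went apart (0.34 and -2.07). The call of DGAT1 was lost without LNCaP replicate 2 (0.18, edgeR adjusted p = 0.154). MGLL, the monoglyceride lipase, was lower (-2.25). The lipid droplet coat gene PLIN2 and the lipase gene LIPE, looked at after their values were seen, were called higher from very few LNCaP counts, PLIN2 with 1 and 0 counts against 55 and 45 and LIPE with 2 and 0 against 24 and 39.

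Fatty acid oxidation held 3 higher and 6 lower of 12. CPT1C, a brain-type carnitine palmitoyltransferase, was higher (7.04 and 8.46 against 24.4 and 22.1 CPM, log2 fold change 1.59), as was HADHA of the mitochondrial trifunctional protein (0.35). HADHB, the gene of the other subunit of that protein, is named outside the rule. It was lower, at 145 and 157 CPM in LNCaP against 116 and 121 CPM in LN-35 (-0.36, edgeR adjusted p = 0.000154). ECI2 (-1.19) and ACAA2 (-1.001) were lower. Acyl-CoA synthetases moved in both directions. ACSL1 fell from 895 and 825 CPM in LNCaP to 129 and 140 CPM in LN-35 (-2.67, SE 0.08, edgeR adjusted p = 3.34e-19), while ACSL4, which prefers arachidonate, rose from 5.20 and 3.30 CPM to 46.0 and 42.7 CPM (3.36, SE 0.17, edgeR adjusted p = 1.85e-14) and ACSL6 from 7.62 and 7.74 CPM to 39.2 and 40.2 CPM (2.37). Of the 5 tested synthetases of this list 3 were higher and 1 lower, and with the member ACSL3 counted the ACSL genes above the filter were split 3 to 1.

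**Figure D4:**
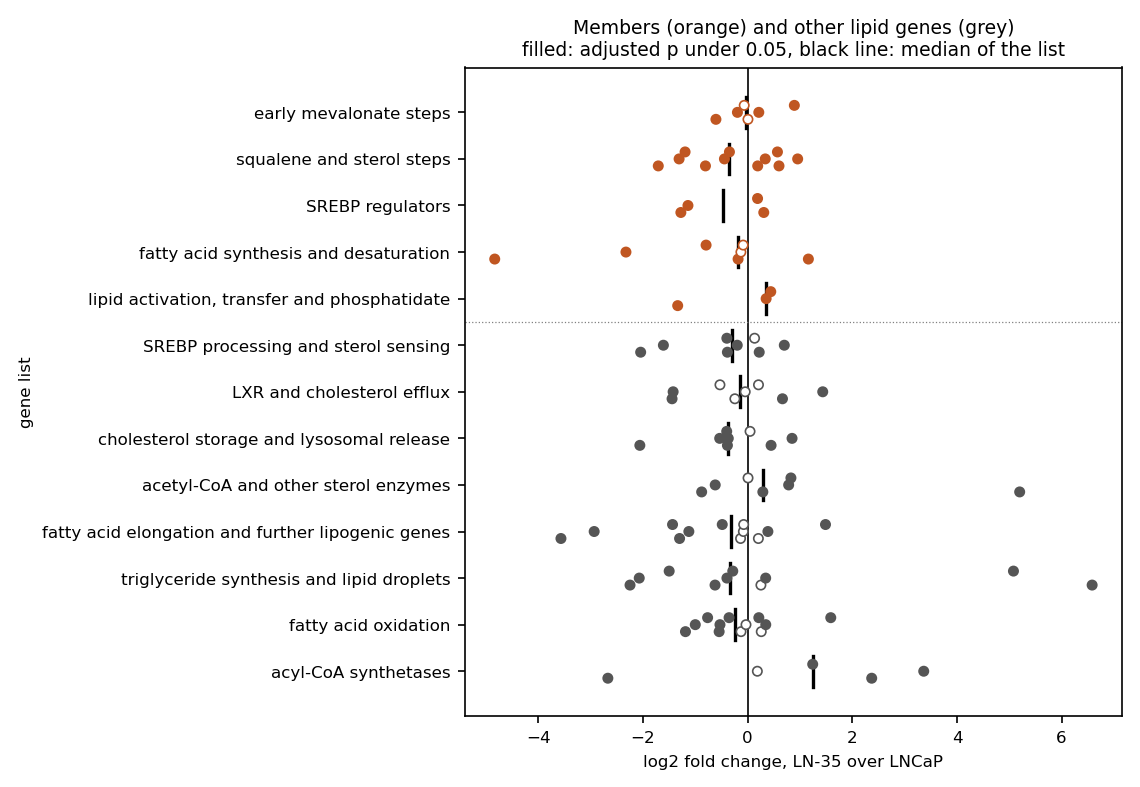
Log2 fold change (LN-35 over LNCaP, x axis) of every tested gene in the 5 member groups (orange) and the 8 further lists (grey), with filled points for an adjusted p under 0.05 and a black line at each list's median. Most lists spread to both sides of 0, and the members' medians run from -0.48 for the SREBP regulators to 0.35 for lipid activation, transfer and phosphatidate.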

How the data were processed

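RNA-seq libraries of LNCaP (2) and LN-35 (2) were analysed. The authors deposited an estimated count per gene for 20332 genes, unscaled, and according to their notes reads were aligned to hg38 with HISAT2 2.0.5 and counted with featureCounts 1.5.0-p3. Between 11.5% and 12.0% of values per library were fractional, by a step not given in the sources used here, and use of strand is not stated, so reads of related, overlapping or antisense genes may be shared. Counts were rounded, genes kept by filterByExpr (minimum count 10), scaled by TMM and compared in edgeR by quasi-likelihood (glmQLFit, robust, then glmQLFTest, two-sided, group as the term), with Benjamini-Hochberg adjustment over 13744 genes and calls at 0.05. The scripts were tested on simulated data.

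Symbols were found for 20304 identifiers, and coordinates and exon lengths come from GENCODE 29 (GRCh38). Promoter windows come from RefSeq (GRCh38.p14). Members and lists were chosen with earlier results of these data known. From the further lists up to 2 called genes per direction were named, by size of change, among those with a mean of at least 5 CPM. Replicates of a line differed beyond counting noise (chi-square per degree of freedom 6.36 and 3.26).

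The labels give repeat numbers under a batch tag, which may pair libraries across lines. Deviations of same-numbered libraries from their line means correlated at 0.0084 over genes. Alternatives were DESeq2 and its size factors, library totals alone, no filter and a filter of 50 counts in 2 libraries, unrounded counts, the repeat as a block, a test against a 1.5-fold change, and leaving out each library. Analyses used edgeR 4.0.16 and DESeq2 1.42.0 in R 4.3.3 (with limma 3.58.1). Tables and plots were made in Python 3.11.15 with matplotlib 3.10.9, numpy 2.4.6 and pandas 2.3.3.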

Additional observations from a re-analysis of the deposited data

How the results depend on the processing

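The counts of called members (12 higher, 15 lower) stayed within 1.5 times of these values under every alternative except the test against a 1.5-fold change, which left 3 members higher (MVD, CYP51A1 and ELOVL6) and 9 lower, and 2904 and 2445 of all genes. With the replicate block 12 members were higher and 15 lower, the same genes as without it (4862 and 4755 over all genes), and no member's call changed. Leaving out 1 library gave 8 to 13 members higher and 12 to 17 lower, 4523 to 4867 and 4413 to 4692 of all genes, and a median log2 fold change of the members from -0.23 to -0.04. Library totals alone gave 9 higher and 16 lower, and shifted the median of all genes from -0.0069 to -0.084. Apart from these counts, 3 members reversed, none of them called in the full data. FASN was at 0.14 without LNCaP replicate 1, while at -0.29 without LNCaP replicate 2 it kept the direction of the full data. MVK was at 0.11 without LNCaP replicate 1 and at 0.092 without LN-35 replicate 2. PMVK was at -0.072 on library totals alone and at -0.0015 without the filter on low counts. It was at -0.012 without LNCaP replicate 2 and at -0.010 without LN-35 replicate 1. At 0.034 without LN-35 replicate 2 it kept the direction of the full data. The causes were not tested. Members whose calls were lost under any alternative other than the 1.5-fold test (HMGCS1, FDPS, FDFT1, SQLE, EBP, SCAP and FADS1) had log2 fold changes between -0.35 and 0.34.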
